A study of Mus musculus with 6 samples.

Results

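The genes described here encode the proteins of the mitochondrial ribosome. They were taken by symbol from a table of TPM (a transcript level corrected for length and scaled to a fixed total per library), as every gene named Mrpl or Mrps followed by a number, with pseudogene symbols left out. This gave 78 of the 41709 genes of the table. The rule itself uses no measured value. Of these 78 genes, 51 encode proteins of the large subunit, 26 encode proteins of the small subunit, and Mrps36 carries the family name although its product belongs to the 2-oxoglutarate dehydrogenase complex. RNA-seq was available for 6 tibialis anterior (TA) muscles of mice, 3 per group. The LrpprcWT muscles received a pCMV6 plasmid for Flag-tagged wild-type Lrpprc, and the LrpprcP27A muscles received the same plasmid with the dihydroxylation-resistant variant, in which a proline is replaced by alanine. The mice of the study were C57BL/6J males, the 2 legs of a mouse received different plasmids, and 14 days passed between electroporation and collection. The age of the mice behind these libraries is not given in the sources used here, no muscle without added Lrpprc was sequenced, and both groups carry their own Lrpprc genes. The plasmid enters only part of the cells of a muscle, and the libraries were made from whole tissue. The comparison asks whether the variant alters gene expression relative to wild-type Lrpprc.

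The mitochondrial ribosome makes the few proteins that the mitochondrial genome encodes, all of them subunits of the respiratory chain and ATP synthase. Its ribosomal RNAs are transcribed inside the organelle, whereas all of its proteins are encoded in the nucleus, made in the cytosol and imported. Some of these proteins descend from bacterial ribosomal proteins and others are found in mitochondrial ribosomes alone. Lrpprc binds and stabilises mitochondrial mRNAs, and the mitochondrial ribosome reads those mRNAs.

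Measures of the whole libraries also differed. Genes of the mitochondrial genome took 40.8, 45.2 and 36.0% of the TPM in the LrpprcWT libraries (replicates 1, 2 and 3, the order used throughout) and 46.1, 44.2 and 45.1% in the LrpprcP27A libraries, so that LrpprcWT replicate 2 lay within the range of the LrpprcP27A libraries. Since TPM is a share of a fixed total, such a difference moves the values of all other genes. Rn18s-rs5, an 18S ribosomal RNA entry, had 13561 ± 4404 TPM (SD, n = 3) with LrpprcWT and 40309 ± 3777 TPM (SD, n = 3) with LrpprcP27A. Lrpprc itself, counted together from the plasmid and the endogenous gene, had 35.1, 37.0 and 75.2 TPM with LrpprcWT and 26.9, 29.7 and 26.0 TPM with LrpprcP27A (log2 fold change -0.72, adjusted p = 0.0652 with limma, and 0.00243 with the replicate number as a block). On the deposited scale the median log2 fold change of all 11611 genes tested was -0.32, and median-of-ratios scaling, which sets the typical gene equal between libraries, moved it to -0.0047. With that scaling the log2 fold change of Lrpprc was -0.36 and did not pass (adjusted p = 0.331 with limma, and 0.245 with the block). The labelled tissue was borne out by its markers, since the 10 muscle fibre genes examined had mean levels from 4008 to 38798 TPM. The number of reads is unknown for TPM, so no counting error can be given.

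All 78 genes were expressed. Their mean levels over the 6 libraries ran from 4.74 TPM for Mrps35 to 149 TPM for Mrps21, with a median of 27.6 TPM. TPM are corrected for transcript length, so these levels can be compared between genes, apart from genes that share exon bases with others, as given below. Only 3 genes were above 100 TPM and 13 were below 10 TPM.

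The most abundant transcripts came from both subunits. Mrps21, the counterpart of bacterial protein S21, had 134, 150 and 173 TPM in the LrpprcWT libraries and 140, 153 and 144 TPM in the LrpprcP27A libraries. Mrpl12, which forms the flexible stalk that recruits translation factors, had 161, 134 and 182 TPM with LrpprcWT and 128, 123 and 115 TPM with LrpprcP27A. The groups overlapped for Mrps21, and for Mrpl12 the LrpprcP27A libraries were all below the LrpprcWT libraries (log2 fold change -0.37 ± 0.128 (SE), adjusted p = 0.061, and 0.022 with the block). Mrpl2, a conserved protein near the catalytic centre, had 102, 101 and 119 TPM and then 96.6, 97.5 and 88.8 TPM. Mrpl18, from the central protuberance of the large subunit, had 91.3, 78.1 and 105 TPM and then 80.4, 76.9 and 75.8 TPM. For Mrpl2 the groups were apart by a few TPM and for Mrpl18 they overlapped, and neither passed the test (adjusted p = 0.199 and 0.18).

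The least abundant transcripts were all of the small subunit. Mrps35 had 5.44, 4.33 and 6.99 TPM with LrpprcWT and 4.15, 3.56 and 3.98 TPM with LrpprcP27A. Mrps10 had 7.08, 5.98 and 7.42 TPM and then 5.54, 5.86 and 5.50 TPM. Mrps25, which shares 75.3% of its exon bases with Nr2c2 on the opposite strand, had 6.03, 6.64 and 7.88 TPM and then 5.47, 5.79 and 5.99 TPM. In these 3 genes every LrpprcP27A library was below every LrpprcWT library, for Mrps10 and Mrps25 by a small margin. Mrps22, the fourth of these genes, had 9.70, 7.59 and 9.30 TPM and then 7.26, 6.63 and 6.77 TPM, again without overlap. None of the 4 passed the test without the block (adjusted p from 0.0952 to 0.239), and Mrps35 and Mrps22 did with it (0.0206 and 0.0479).

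**Figure D1:**
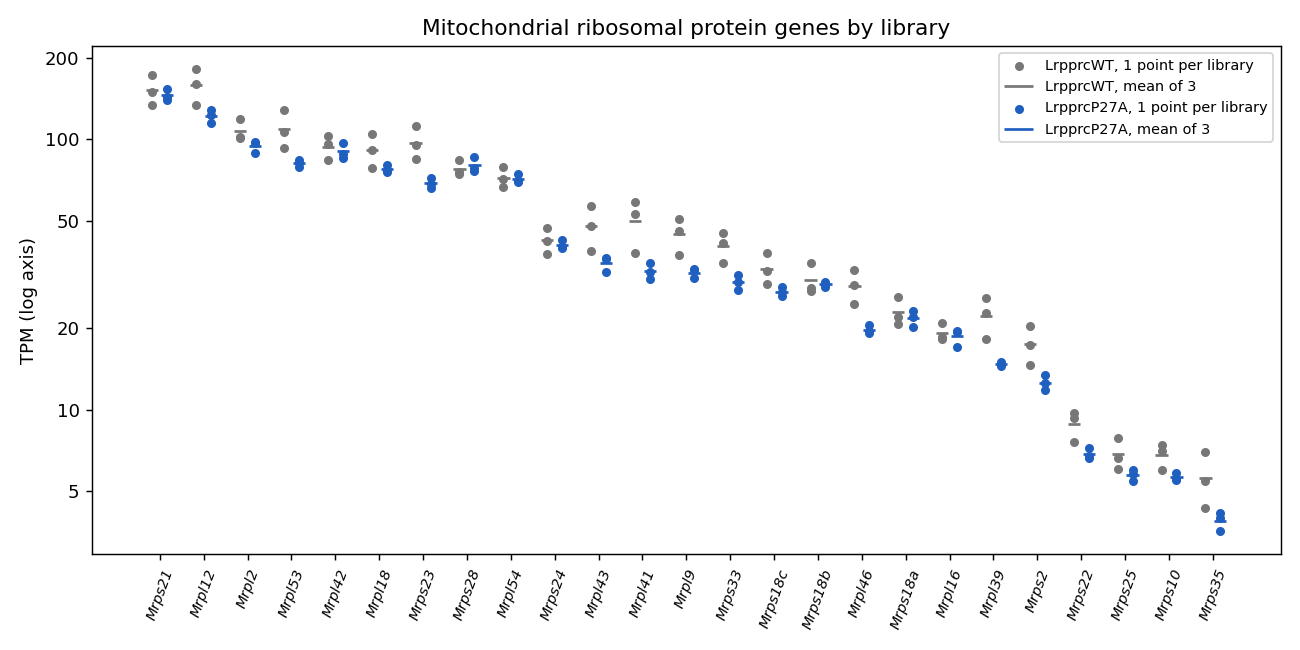
TPM (log axis) of the 25 mitochondrial ribosomal protein genes given one by one, in order of mean level, with a point per library and a line at the mean of the 3 LrpprcWT libraries (grey) or LrpprcP27A libraries (blue). Mrps21 is the highest at a mean of 149 TPM and Mrps35 the lowest at 4.74 TPM, and the LrpprcWT points are spread more widely than the LrpprcP27A points.

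The summed level of the 78 genes differed more among the LrpprcWT muscles than among the LrpprcP27A muscles. The sum was 2843, 2643 and 3340 TPM with LrpprcWT (2942 ± 359, SD, n = 3) and 2464, 2511 and 2421 TPM with LrpprcP27A (2465 ± 45.2, SD, n = 3). All LrpprcP27A libraries were below all LrpprcWT libraries. As a share of the TPM outside the mitochondrial genome and Rn18s-rs5, the same sum was 0.495, 0.490 and 0.534% with LrpprcWT and 0.499, 0.482 and 0.475% with LrpprcP27A, and on this scale the groups overlapped. One library stood out: LrpprcWT replicate 3 held the highest value of 75 of the 78 genes. Across genes the median coefficient of variation was 13.6% in the LrpprcWT group and 4.43% in the LrpprcP27A group, against 17.2% and 10.2% over all genes tested. The SD was larger with LrpprcWT for 77 of the 78, where the share over all genes tested was 84.4%.

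**Figure D2:**
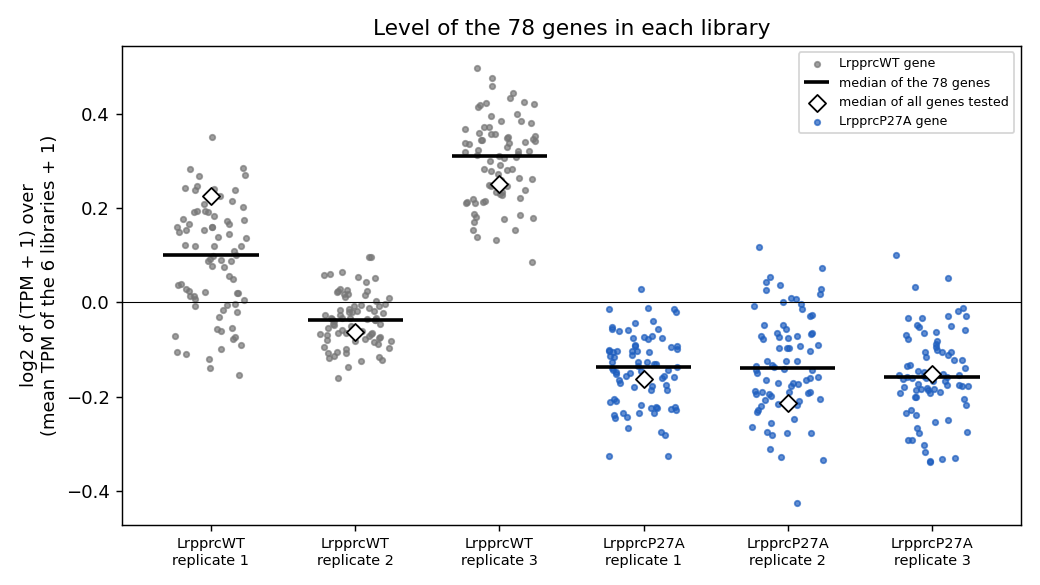
Log2 of (TPM + 1) over (the mean TPM of the 6 libraries + 1) for each of the 78 genes in each library (points, grey for LrpprcWT and blue for LrpprcP27A), with the median of the 78 genes (bar) and of all 11611 genes tested (diamond). The median of the 78 genes is highest in LrpprcWT replicate 3 (0.31), nearest to 0 in LrpprcWT replicate 2 (-0.037) and between -0.16 and -0.14 in the LrpprcP27A libraries.

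On the deposited scale 77 of the 78 genes had a log2 fold change (LrpprcP27A minus LrpprcWT, of TPM + 1) below 0, with a median of -0.26 and a range from -0.57 to 0.04, but with median-of-ratios scaling 60 of the 78 were above 0 and the median was 0.094. The deposited median lies above that of all genes tested, and 49 of the 78 genes lay above it. In the limma test 7 of the 78 genes were lower at an adjusted p under 0.05, or 8.97%, where the background over all genes tested was 23.3%. None was higher, with a background of 1.34% and no gene higher at an unadjusted p under 0.05 either. With the replicate number as a block, which treats libraries of the same number as the 2 legs of a mouse, 32 were lower and none higher, against backgrounds of 48.4% and 2.69%. Every LrpprcP27A value was below every LrpprcWT value for 52 genes (background 47.6%) and above for none (background 3.51%). Same-numbered libraries were lower with LrpprcP27A for 69, 59 and 78 of the 78 genes in the pairs 1, 2 and 3, or 88.5, 75.6 and 100%, where the shares over all genes tested were 89.1, 74.8 and 86.3%. In whole-tissue RNA, fewer cells that express these genes and less RNA per cell cannot be told apart.

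These calls depended on the scaling and on single libraries. With median-of-ratios scaling no gene was lower (background 6.03%) and 1 was higher, Mrps24 (background 5.25%). With that scaling and the block none was lower (background 15.8%) and 12 were higher, a share of the 78 near the background of 13.4%. Leaving out LrpprcWT replicate 2, the LrpprcWT library nearest to the LrpprcP27A libraries, gave 47 lower genes, with a background of 59.5%. Leaving out any 1 of the other 5 libraries gave 0 lower genes, and 11 to 22 genes then had an unadjusted p under 0.05. The backgrounds there were 2.51 and 0.129% without LrpprcWT replicates 1 and 3, and 14.5, 4.34 and 3.79% without LrpprcP27A replicates 1, 2 and 3.

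**Figure D3:**
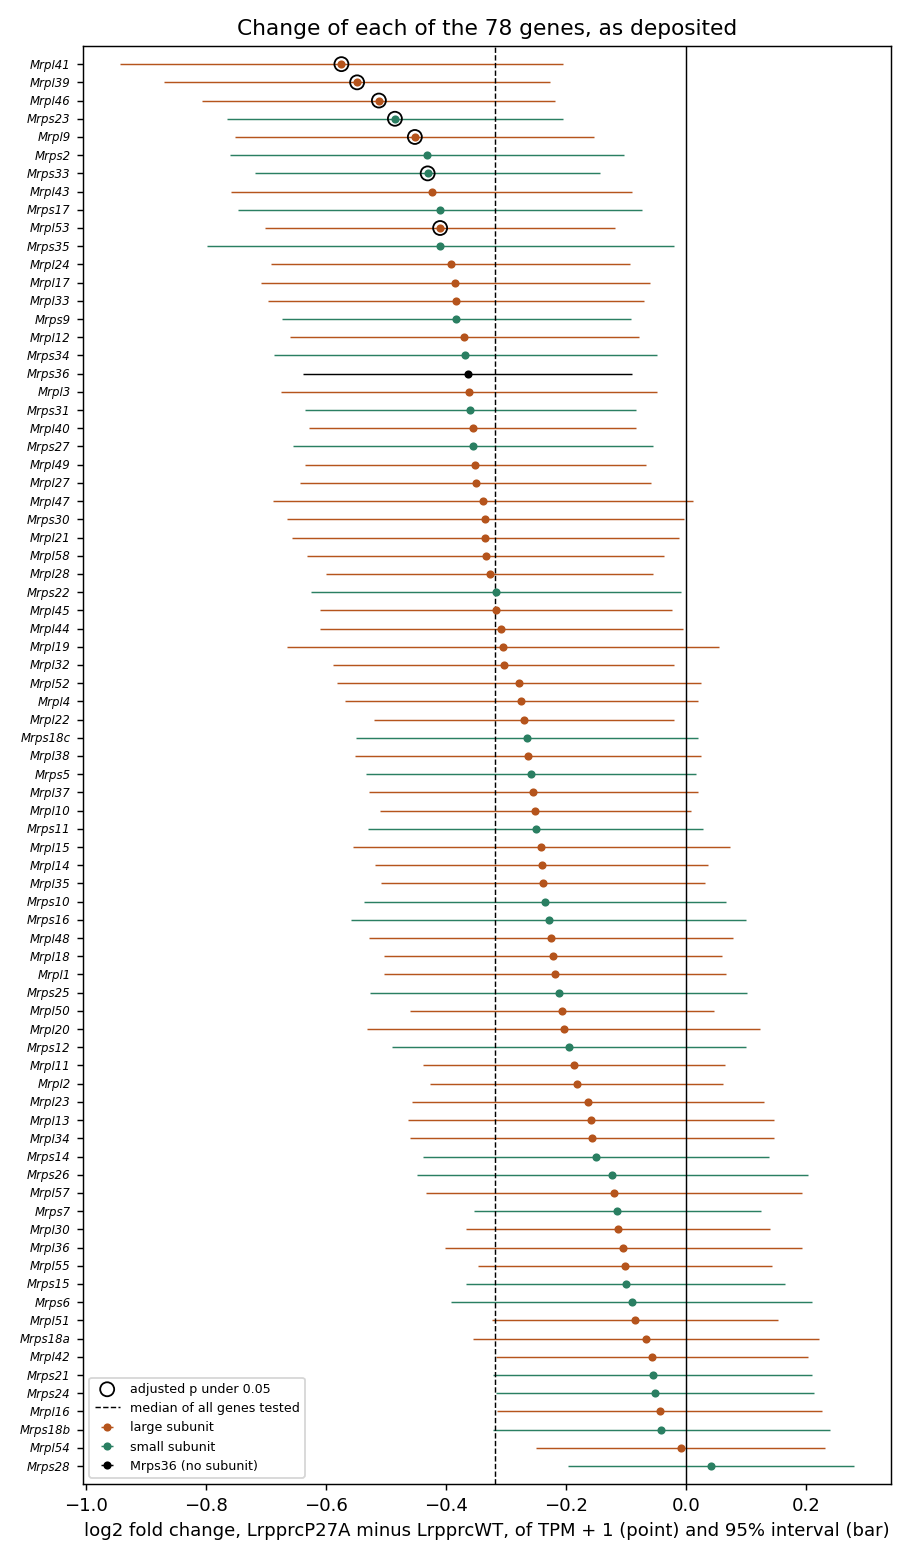
Log2 fold change of TPM + 1, LrpprcP27A minus LrpprcWT, on the deposited scale for each of the 78 genes (point) with its 95% interval from limma (bar), coloured by subunit, with circles around the 7 genes at an adjusted p under 0.05. The points run from -0.57 (Mrpl41) to 0.04 (Mrps28) around the median of all genes (dashed line, -0.32), and with median-of-ratios scaling 60 of them would lie above 0.

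The 7 lower genes were 5 of the large subunit and 2 of the small subunit. Mrpl41 (ENSMUSG00000036850, GRCm39 chr2:24862319-24865956), a large-subunit protein without a bacterial counterpart, had 52.8, 38.0 and 58.6 TPM with LrpprcWT and 35.0, 30.4 and 32.4 TPM with LrpprcP27A. Its mean fell from 49.8 ± 10.6 to 32.6 ± 2.32 TPM (SD, n = 3), a log2 fold change of -0.57 ± 0.163 (SE) with an adjusted p of 0.0385. The groups did not overlap, although LrpprcWT replicate 2 was within a few TPM of the LrpprcP27A libraries. Mrpl39 (ENSMUSG00000022889, chr16:84502276-84533793), another protein confined to mitochondrial ribosomes, had 22.8, 18.2 and 25.8 TPM and then 15.1, 14.8 and 14.5 TPM, and its log2 fold change was -0.55 ± 0.142 (SE, adjusted p = 0.0308). The 3 LrpprcP27A values of Mrpl39 were nearly equal (SD 0.284 TPM).

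Mrpl46 (ENSMUSG00000030612, chr7:78424922-78433279), part of the central protuberance that faces the small subunit, had 28.9, 24.7 and 32.8 TPM with LrpprcWT and 20.7, 19.2 and 19.5 TPM with LrpprcP27A (log2 fold change -0.51 ± 0.13 (SE), adjusted p = 0.0297). Mrps23 (ENSMUSG00000023723, chr11:88095176-88102345), a mitochondrion-specific protein of the small subunit, had 95.6, 84.3 and 112 TPM and then 66.0, 71.8 and 68.4 TPM (-0.49 ± 0.123, adjusted p = 0.0298). These had the smallest adjusted p of the family, and the lowest LrpprcWT value of each lay clearly above the highest LrpprcP27A value. Mrpl9 (ENSMUSG00000028140, chr3:94350594-94358437), the counterpart of bacterial L9 and the only conserved protein among the 7, had 45.8, 37.4 and 50.8 TPM and then 32.8, 33.1 and 30.6 TPM (-0.45 ± 0.132, adjusted p = 0.0409).

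Mrps33 (ENSMUSG00000029918, chr6:39777832-39787922), of the small subunit, had 41.5, 34.8 and 44.9 TPM with LrpprcWT and 31.5, 29.6 and 27.6 TPM with LrpprcP27A (-0.43 ± 0.127, adjusted p = 0.0416). Mrpl53 (ENSMUSG00000030037, chr6:83085887-83088572), of the large subunit, had 107, 93.3 and 128 TPM and then 81.7, 83.6 and 79.2 TPM (-0.41 ± 0.128, adjusted p = 0.0483). In both, as in the other 5, LrpprcWT replicate 2 was the lowest LrpprcWT library and replicate 3 the highest. All 7 log2 fold changes were also below 0 under the 3 other scalings, from -0.21 to -0.04 with median-of-ratios scaling, but none passed the test under any of the 3 (adjusted p from 0.0568 to 0.798). With the block all 7 passed, with adjusted p from 0.00147 to 0.0128.

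Several genes with differences of the same size did not pass, and Mrps2 and Mrpl43 had the lowest log2 fold changes among them. Mrps35, given above, had a log2 fold change of -0.41 (adjusted p = 0.0952), the same as Mrpl53 after rounding. Mrps2, the counterpart of bacterial S2, had 17.4, 14.6 and 20.5 TPM with LrpprcWT and 11.8, 12.5 and 13.5 TPM with LrpprcP27A (log2 fold change -0.43 ± 0.145 (SE), adjusted p = 0.0562, and 0.0103 with the block). Mrpl43 had 47.9, 38.6 and 56.6 TPM and then 36.4, 36.0 and 32.5 TPM (-0.42 ± 0.147, adjusted p = 0.0616, and 0.0152 with the block). Neither Mrps2 nor Mrpl43 overlapped between groups, and their LrpprcWT libraries were spread like those of the genes that passed.

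At the other end were genes whose TPM hardly differed between the groups on the deposited scale. Mrps28, the counterpart of bacterial S1, had 74.3, 75.6 and 84.1 TPM with LrpprcWT and 78.5, 85.9 and 76.4 TPM with LrpprcP27A, a log2 fold change of 0.04 with a 95% interval from -0.20 to 0.28. It was the only one of the 78 above 0 on that scale. Mrpl54 had 71.1, 66.6 and 78.8 TPM and then 69.7, 74.6 and 70.4 TPM, a log2 fold change of -0.0088 with a 95% interval from -0.25 to 0.23. Mrps24, the counterpart of bacterial S3, had 42.2, 37.7 and 47.2 TPM and then 42.4, 39.9 and 39.8 TPM (-0.05, adjusted p = 0.728). Median-of-ratios scaling gave log2 fold changes of 0.41 for Mrps28, 0.36 for Mrpl54 and 0.32 for Mrps24, with adjusted p of 0.0618, 0.052 and 0.0499, and of 0.0148, 0.0166 and 0.0307 with the block as well. Mrpl42 had 83.6, 96.1 and 103 TPM with LrpprcWT and 85.6, 97.1 and 88.1 TPM with LrpprcP27A. Mrpl16, the counterpart of bacterial L16, had 18.2, 18.6 and 21.0 TPM and then 17.1, 19.5 and 19.5 TPM. With that scaling and the block, Mrpl42 and Mrpl16 also passed as higher (adjusted p = 0.0387 and 0.0237). The deposited TPM overlapped between the groups for all 5 of these genes.

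The share of a gene in the summed TPM of the 78 genes does not depend on how libraries are scaled. For Mrpl41 this share was 1.86, 1.44 and 1.75% with LrpprcWT and 1.42, 1.21 and 1.34% with LrpprcP27A. For Mrps28 it was 2.61, 2.86 and 2.52% and then 3.19, 3.42 and 3.16%. The 2 genes thus moved in opposite directions within the family, with no overlap between groups, and since they were picked as the ends of the range their shares are a description. Mrpl12, named for its level, held 5.65, 5.07 and 5.45% and then 5.20, 4.90 and 4.73%, and there the groups overlapped. For 3 muscles against 3 the smallest two-sided p of an exact permutation test is 0.1, so that test could not pass a threshold of 0.05 for any share, and no other test of the shares was made.

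By origin, 6 of the 31 mitochondrion-specific proteins had lower transcripts at an adjusted p under 0.05 and 1 of the 46 proteins with bacterial counterparts did, against a background of 23.3%. With the block these counts were 18 and 13, against 48.4%. The median log2 fold change was -0.32 for the mitochondrion-specific and -0.24 for the conserved proteins on the deposited scale, and 0.016 and 0.11 with median-of-ratios scaling. Both values on the deposited scale lie at or above that of all genes, and the difference between the classes was not tested. The mitochondrion-specific class includes Mrps18a and Mrps18b, although they are paralogs of a bacterial protein, as described below. By subunit, 5 of 51 large-subunit and 2 of 26 small-subunit genes were lower, with medians of -0.27 and -0.24 (0.093 and 0.097 with median-of-ratios scaling), and with the block 21 and 10 were lower. Within the large subunit, none of the 6 proteins around the exit of the nascent chain passed (median -0.33, and 0.025 with median-of-ratios scaling), nor did either of the stalk proteins, Mrpl10 and Mrpl12, whereas with the block 4 of the 6 and 1 stalk protein, Mrpl12, were lower. Of the 7 proteins of the central protuberance, Mrpl46 was lower and the other 6 did not pass, and with the block 3 of the 7 were lower. Mrps36, which is no ribosomal subunit, had 92.1, 81.9 and 106 TPM with LrpprcWT and 76.4, 70.4 and 69.2 TPM with LrpprcP27A (log2 fold change -0.36, adjusted p = 0.0547, and 0.021 with the block).

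Mammals have 3 paralogs of bacterial protein S18, which sit at different places of the mitochondrial ribosome. Mrps18a, found in the large subunit, had 20.7, 22.1 and 26.2 TPM with LrpprcWT and 20.3, 22.0 and 23.3 TPM with LrpprcP27A (log2 fold change -0.07, adjusted p = 0.677). Mrps18b, of the small subunit, had 27.5, 28.1 and 34.9 TPM and then 28.6, 29.8 and 29.1 TPM (-0.04, adjusted p = 0.796). Mrps18c, which takes the place of S18 itself, had 32.5, 29.1 and 38.1 TPM and then 28.4, 26.4 and 27.3 TPM (-0.26 ± 0.126 (SE), adjusted p = 0.127). On the deposited scale only Mrps18c was without overlap between the groups, and its difference from the other 2 paralogs was not tested. Mrps18a and Mrps18b lay higher with LrpprcP27A once median-of-ratios scaling was applied, by 0.29 and 0.32 on the log2 scale. Neither passed the limma test without the block (adjusted p = 0.142 and 0.0943), and both passed with it (0.0376 and 0.0359). Mrps18c, at 0.10 on that scaling, passed neither way (adjusted p = 0.432, and 0.383 with the block). All 3 share most of their exon bases with other annotated genes (72.3, 67.5 and 82.4%), which lie on the opposite strand for Mrps18a and Mrps18b and on both strands for Mrps18c. The library kit does not keep the strand, so reads of these genes and their neighbours cannot be told apart.

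Such sharing was common in the family. In the GENCODE annotation of GRCm39, 51 of the 78 genes shared at least 1 exon base with another annotated gene and 11 shared more than 50% of their exon bases. Mrpl54 had the largest share, 93.9%, with Matk on the opposite strand. None of the 7 lower genes was among the 11, whose median log2 fold change was -0.16 against -0.27 for the other 67. Of the 7, Mrpl39, Mrpl53 and Mrpl9 shared 24.5, 20.3 and 9.52% of their exon bases with genes on the opposite strand, and the rest shared none. Mrpl43 shared 27.5% with Twnk on the opposite strand. Across the 78 genes Spearman's rho of the log2 fold change with the length was -0.078 and with the GC content 0.07, given as a description over genes that share the same 6 libraries.

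The 78 genes are spread over 17 chromosomes, with 11 on chromosome 11 and 8 on chromosome 17. For 14 of them (17.9%) the start of the canonical GENCODE transcript lies within 1000 bases of the start of a gene on the other strand that runs the opposite way, compared with 7.35% of 10921 protein-coding genes tested. In 1 case both genes are members of the family: the starts of the canonical transcripts of Mrpl46 and Mrps11 are 30 bases apart. The position of Mrpl46 given above reaches further because other annotated transcripts of it start upstream, and 16.4% of the exon bases of Mrps11 are shared with them. The stretch between them, chr7:78432838-78432866 of GRCm39 on the strand of Mrpl46, is shown because all sequence between these 2 starts fits in it.
Mrpl46-Mrps11: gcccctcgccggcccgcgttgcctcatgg
Mrpl46 passed the test and Mrps11, the counterpart of bacterial S11, did not. Mrps11 had 13.0, 11.6 and 13.8 TPM with LrpprcWT and 10.4, 11.3 and 10.1 TPM with LrpprcP27A (log2 fold change -0.25, adjusted p = 0.137), without overlap, and the difference between the neighbours was not tested. Other members start beside genes with mitochondrial or ribosomal roles. Mrps12 starts 129 bases from Sars2, the mitochondrial seryl-tRNA synthetase, Mrpl43 starts 56 bases from Twnk, the helicase of mitochondrial DNA, and Mrpl49 starts 52 bases from Fau, which encodes a protein of the cytosolic ribosome. Of these neighbours Fau was lower (log2 fold change -0.57, adjusted p = 0.0267). Sars2 (-0.34, adjusted p = 0.117, and 0.039 with the block) and Twnk (-0.12, adjusted p = 0.457) did not pass without the block. Mrpl41 starts 101 bases from Pnpla7, which had a log2 fold change of 0.25 (adjusted p = 0.157).

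RefSeq promoter windows (GRCm38.p6, 250 bases before to 50 bases after the start) were on hand for 69 of the 78 genes and for 9107 of the genes tested. A set of 6 short motifs was searched on both strands, and a match is a description of letters only. The ETS motif CCGGAAG was in 37.7% of the members' windows and 20.3% of all windows, the YY1 motif GCCATNTT in 30.4% and 10.3%, and GCATGCGC, part of the NRF1 site, in 11.6% and 6.01%. The SP1 motif GGGCGG was in 49.3% of the members' windows against 69.3% of all. CCAAT was in 39.1% and 42.7%, and TATAAA in 7.25% and 9.19%. On the deposited scale the median log2 fold change was -0.27 for the 26 members with the ETS motif and -0.25 for the 43 without it, and for YY1 the medians were -0.25 for 21 members with and -0.27 for 48 without. For NRF1 they were -0.34 for 8 with and -0.25 for 61 without. For SP1 they were -0.23 for 34 with and -0.33 for 35 without. For CCAAT they were -0.24 for 27 with and -0.27 for 42 without, and for TATAAA -0.22 for 5 and -0.26 for 64. None of these differences was tested.

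The 250 bases before the start are shown for 4 members out of the 19 whose window was found once in GRCm39 with at most 30 of those bases in exons of protein-coding genes. Among the 19 they are the gene with the lowest log2 fold change (Mrps2), the gene with the highest, which was also the most abundant (Mrpl42), the next most abundant (Mrpl34) and the gene with the most matches to ETS, NRF1 and YY1 (Mrpl22). Capitals mark the motif matches. In GRCm39 the windows lie at chr2:28357828-28358077 on the plus strand, chr10:95337812-95338061 on the minus strand, chr8:71917320-71917569 on the plus strand and chr11:58062240-58062489 on the plus strand, in that order.
Mrps2: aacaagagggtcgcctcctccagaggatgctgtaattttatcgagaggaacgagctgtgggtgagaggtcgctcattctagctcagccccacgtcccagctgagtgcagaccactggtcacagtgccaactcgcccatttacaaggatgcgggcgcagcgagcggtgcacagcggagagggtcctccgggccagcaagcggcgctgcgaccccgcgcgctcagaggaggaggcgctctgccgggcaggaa
Mrpl42: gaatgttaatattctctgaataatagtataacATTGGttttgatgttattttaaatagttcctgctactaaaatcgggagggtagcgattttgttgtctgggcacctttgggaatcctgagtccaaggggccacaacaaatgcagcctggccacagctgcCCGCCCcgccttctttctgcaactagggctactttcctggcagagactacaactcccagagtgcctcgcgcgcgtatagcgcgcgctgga
Mrpl34: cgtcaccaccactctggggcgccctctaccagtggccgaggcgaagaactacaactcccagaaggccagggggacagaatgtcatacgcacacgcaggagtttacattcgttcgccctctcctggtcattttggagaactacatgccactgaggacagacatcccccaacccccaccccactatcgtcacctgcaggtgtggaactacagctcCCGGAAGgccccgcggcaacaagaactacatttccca
Mrpl22: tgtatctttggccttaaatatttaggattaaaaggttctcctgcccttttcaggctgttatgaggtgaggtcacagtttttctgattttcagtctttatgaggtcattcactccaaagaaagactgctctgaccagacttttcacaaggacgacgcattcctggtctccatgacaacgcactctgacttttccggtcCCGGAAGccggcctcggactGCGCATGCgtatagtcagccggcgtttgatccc
In Mrps2 none of the motifs matched. The Mrpl42 sequence held CCAAT on the other strand 218 bases and an SP1 match 90 bases before the start. In Mrpl34 an ETS match lies 37 bases before the start, and in Mrpl22 an ETS match at 53 bases is followed by an NRF1 match at 33. Mrpl22, a protein near the exit of the nascent chain, had 31.8, 33.2 and 37.0 TPM with LrpprcWT and 28.8, 28.3 and 26.8 TPM with LrpprcP27A, without overlap (log2 fold change -0.27, adjusted p = 0.0895). Mrpl34, the counterpart of bacterial L34, had 66.5, 72.2 and 91.3 TPM and then 67.6, 72.2 and 64.7 TPM, with overlap (-0.16, adjusted p = 0.355). It shares 82.0% of its exon bases with Gm64263 on the opposite strand.

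Other genes of mitochondrial translation were examined as 4 lists of 67 genes in all: subunits with other names, assembly factors, translation factors and mitochondrial tRNA synthetases. Of these, 4 were lower and 1 higher, against the backgrounds of 23.3% and 1.34%. Their median log2 fold change was -0.26, like that of the Mrp genes, and 0.063 with median-of-ratios scaling. With that scaling none was lower (background 6.03%) and 3 were higher (5.25%). With the block as well, none was lower (15.8%) and 9 were higher (13.4%). On the deposited scale with the block 21 were lower, where the background was 48.4%. Without LrpprcWT replicate 2 the count was 42 (background 59.5%), and without any 1 of the other libraries it was 0 (backgrounds of 0.129 to 14.5%).

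Of the 5 subunits with other names, Ptcd3, of the small subunit, was lower, and with the block 2 of the 5 were. It had 29.6, 23.9 and 30.6 TPM with LrpprcWT and 20.3, 21.4 and 20.8 TPM with LrpprcP27A (log2 fold change -0.40 ± 0.126 (SE), adjusted p = 0.048). Gadd45gip1 (-0.38, adjusted p = 0.0665, and 0.0238 with the block), Aurkaip1 (-0.26), Dap3 (-0.24) and Chchd1 (0.01) did not pass, and Chchd1 had 86.4, 102 and 117 TPM and then 95.7, 108 and 103 TPM.

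Among 27 assembly factors 1 was lower, Trub2, a mitochondrial pseudouridine synthase, with 10.2, 9.19 and 10.8 TPM and then 7.22, 7.82 and 7.16 TPM (-0.39 ± 0.125, adjusted p = 0.0493). With the block 10 of the 27 were lower. Trub2 lay outside the rule for named genes and was named after its value was seen, because it is the gene behind the count. By the rule, the lowest were Mettl15, a methyltransferase of the small ribosomal RNA (-0.47, adjusted p = 0.0654, and 0.00816 with the block), and Gtpbp6 (-0.45, adjusted p = 0.0915, and 0.0117 with the block). The highest were Ybey (0.05) and Malsu1, which keeps immature large subunits from joining small ones. Malsu1 had 9.14, 9.22 and 9.74 TPM with LrpprcWT and 11.3, 11.9 and 11.8 TPM with LrpprcP27A, without overlap (log2 fold change 0.29, adjusted p = 0.0838). With median-of-ratios scaling its log2 fold change was 0.63 and its adjusted p 0.0263.

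Of 15 translation factors 2 were lower, and 6 with the block. Tufm, the elongation factor that brings aminoacyl-tRNA to the ribosome, had 148, 124 and 168 TPM with LrpprcWT and 106, 104 and 106 TPM with LrpprcP27A (-0.46 ± 0.124, adjusted p = 0.0336). Oxa1l, which inserts new proteins into the inner membrane, had 32.5, 23.5 and 32.4 TPM and then 21.5, 20.8 and 19.6 TPM (-0.48 ± 0.146, adjusted p = 0.0448). The LrpprcP27A libraries of both genes were close together, as they were for the lower Mrp genes. The highest values were those of the recycling factor Gfm2 (0.08) and the release factor Mtrf1 (-0.0044). With median-of-ratios scaling these were 0.43 and 0.33 (adjusted p = 0.0451 and 0.0684, and 0.0109 and 0.0289 with the block as well).

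Of 20 genes for tRNA charging 1 was higher, Lars2, the mitochondrial leucyl-tRNA synthetase, and none was lower, whereas with the block 3 were lower and Lars2 alone was higher. It had 39.6, 31.5 and 44.6 TPM with LrpprcWT and 93.6, 93.6 and 89.3 TPM with LrpprcP27A (log2 fold change 1.25 ± 0.136 (SE), adjusted p = 0.00622, and 1.62 with median-of-ratios scaling). The LrpprcP27A values were above all LrpprcWT values, and the next largest log2 fold change in the 4 lists was that of Malsu1. Rn18s-rs5, as given above, also had more TPM in each LrpprcP27A library, and its part in the Lars2 values was not tested. At the other end Hars2 (-0.41, adjusted p = 0.0764, and 0.0185 with the block) and Tars2 (-0.35, adjusted p = 0.0746, and 0.0312 with the block) had the lowest values.

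The RNA part of the ribosome is encoded in the mitochondrial genome. The small ribosomal RNA mt-Rnr1 had 2488, 3044 and 3087 TPM with LrpprcWT and 3211, 2807 and 4112 TPM with LrpprcP27A (log2 fold change 0.22, adjusted p = 0.268). The large ribosomal RNA mt-Rnr2 had 2753, 3894 and 3295 TPM and then 3674, 3282 and 4200 TPM (0.17, adjusted p = 0.356). Both overlapped between the groups. After median-of-ratios scaling their log2 fold changes were 0.60 and 0.55, and neither passed.

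The 7 of 78 genes can be set beside the counts in other large complexes. The backgrounds of lower genes were 23.3%, 48.4% with the block and 6.03% with median-of-ratios scaling. Of 77 cytosolic ribosomal protein genes 51 were lower (69 with the block), with a median log2 fold change of -0.42. With median-of-ratios scaling 1 was lower, with or without the block, and the median was -0.045. Of 37 nuclear genes for complex I subunits 3 were lower (5 with the block), with a median of -0.19. With median-of-ratios scaling none was lower, 1 was higher (background 5.25%) and the median was 0.18. With that scaling and the block 3 were higher (background 13.4%). No test of the difference between the lists was made.

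Markers of other cell types also differed between the groups. All 6 fibroblast genes examined were lower with LrpprcP27A (median log2 fold change -1.64, and -1.27 with median-of-ratios scaling, where 4 were lower), and their summed TPM was 950 to 1569 with LrpprcWT and 244 to 548 with LrpprcP27A. All 6 macrophage genes were lower as well (median -1.27, and -0.94 with median-of-ratios scaling, where 2 were lower), with sums of 118 to 268 and 39.2 to 94.6 TPM. Of 5 endothelial genes 2 were lower, 5 with the block and 0 with median-of-ratios scaling (sums of 153 to 283 and 113 to 157 TPM). With that scaling and the block 5 of the 6 fibroblast, all 6 macrophage and 3 of the 5 endothelial genes were lower (background 15.8%). Over all genes tested 23.3% were lower as deposited, 48.4% with the block and 6.03% with median-of-ratios scaling. Of 4 adipocyte genes none of the 2 abundant enough to test passed (sums of 1.69 to 4.20 and 1.81 to 5.62 TPM). None of these markers was listed at 0 in all libraries. Of the 10 muscle fibre genes 1 was lower and 1 higher, and with the block 2 and 2. On the log2 scale this list had a median difference of 0.027 as deposited and of 0.40 after median-of-ratios scaling, where 0 were lower and 1 was higher, with sums of 144521 to 159640 and 134891 to 152940 TPM. With that scaling and the block 0 were lower and 4 were higher (background of higher genes 13.4%). The part of these markers in the values of the mitochondrial ribosomal protein genes was not tested.

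**Figure D4:**
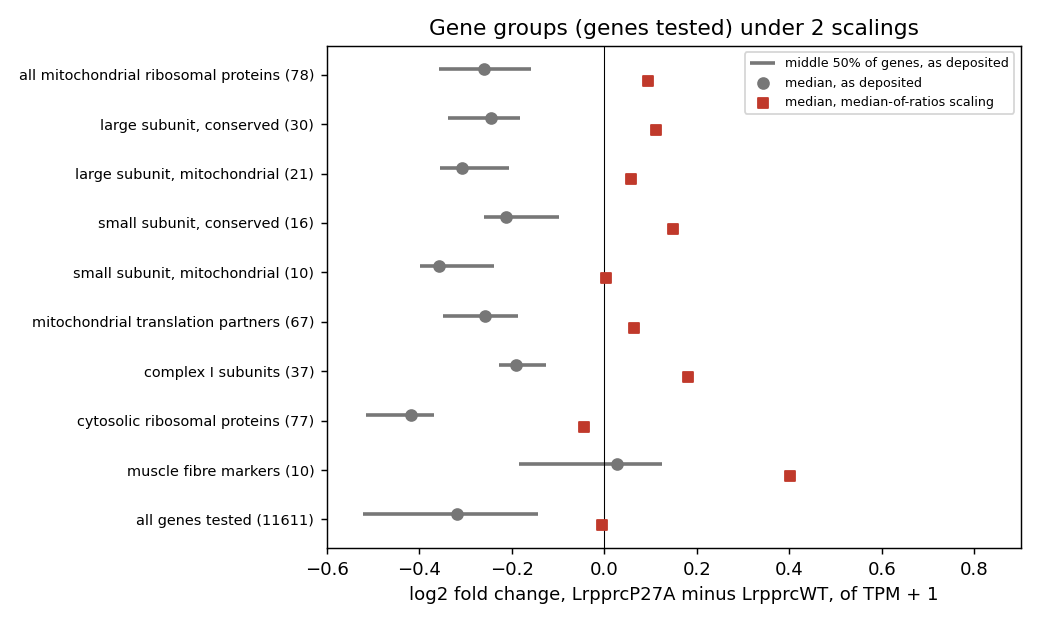
Median log2 fold change of TPM + 1, LrpprcP27A minus LrpprcWT, for groups of genes (number tested in brackets), as deposited (grey point, with the middle 50% of genes as a line) and with median-of-ratios scaling (red square). The 78 mitochondrial ribosomal protein genes lie at -0.26 and at 0.094, cytosolic ribosomal proteins at -0.42 and -0.045, complex I subunits at -0.19 and 0.18, and all genes at -0.32 and -0.0047.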

How the data were processed

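RNA was isolated with TRIzol and made into libraries with a TruSeq RNA v2 kit, which does not mark strand. The authors trimmed and mapped the reads (CLC Genomics Workbench, GRCm39) and deposited TPM per gene without further normalization between libraries. Depth is not known. From these, log2(TPM + 1) of the 11611 genes whose TPM averaged 1 or more was compared with limma 3.58.1 in R 4.3.3 (moderation with a trend, two-sided, Benjamini-Hochberg adjustment over all genes tested), with no block as in the study's methods. The added 1 makes the fold changes of low genes too small. Libraries of the same number were taken as contralateral muscles of 1 mouse, from the shared numbers and the study's contralateral design, though no label states that the number is the mouse, and after subtraction of the group means they correlated by 0.363, 0.528 and 0.356 across genes (other combinations -0.36 to 0.004). Values with the block rest on this pairing and are printed where it changed a call of a gene given one by one or moved a count given here by over 1.5 times. The fits were also run on simulated data without pairing or a shift between libraries, and with changes larger than those of the members. That run does not bear on the choice of scaling or block.

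The members and lists were chosen with earlier results of these data known. Genes given one by one are the 6 most and 4 least abundant, the 8 lowest and 8 highest log2 fold changes and the Mrps18 paralogs, 25 in all. Of the other lists, the 2 lowest and 2 highest are given, with all 5 subunits of other names, except 1 gene that is not reported here. Mrps11, Mrps36, Mrpl22, Mrpl34 and Trub2 were named after their values were seen. Alternatives were a pseudocount of 0.1, a filter at 5 TPM or none, limma without trend, no moderation, the Kruskal-Wallis test, the block, 3 other scalings and leaving out each library. Positions and overlaps come from GENCODE vM39. The labels give 1 mg of RNA per library and the study's methods a smaller unit.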

Additional observations from a re-analysis of the deposited data

How the results depend on the processing

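The 7 lower mitochondrial ribosomal protein genes and the 4 lower genes of the other translation lists were the same in number with a pseudocount of 0.1 (7 and 4) and close with a minimum mean of 5 TPM (6 and 4). Without the trend in limma the numbers were 4 and 2. They were 0 and 0 with no filter, with no moderation, after quantile normalization and after rescaling over genes outside the mitochondrial genome and ribosomal RNA, where between 9 and 37 of the 78 genes had an unadjusted p under 0.05. The Kruskal-Wallis test also gave 0 and 0, but with 3 against 3 it could call no gene of the table after adjustment, so its counts say nothing about stability. With the replicate block they were 32 and 21. Median-of-ratios scaling gave 0 and 0 lower and 1 and 3 higher genes, and together with the replicate block 0 and 0 lower and 12 and 9 higher. Leaving out each library in turn gave 0 to 47 lower genes among the 78 and 0 to 42 in the other lists, with 47 and 42 without LrpprcWT replicate 2 and 0 without any other library, while the share of all genes tested that was lower ran from 0.129 to 59.5%, and the median of the 78 genes ran from -0.33 to -0.17. That median was 0.094 with median-of-ratios scaling, with or without the replicate block, 0.052 after quantile normalization and -0.083 after rescaling. The cause of these changes was not tested.

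The log2 fold changes that turned from below to above 0 with median-of-ratios scaling, with or without the replicate block, were those of Mrpl54 0.36, Mrps18b 0.32, Mrps21 0.32, Mrps24 0.32, Mrpl42 0.31, Mrpl16 0.31, Mrps18a 0.29, Mrpl2 0.19, Mrpl18 0.15, Mrps25 0.11, Mrps18c 0.10, Mrps10 0.089, Mrps22 0.016 and Mrpl12 0.0032. After quantile normalization they were Mrpl16 0.29, Mrps18b 0.27, Mrpl54 0.26, Mrps18a 0.26, Mrps24 0.22, Mrpl42 0.21, Mrps21 0.20, Mrps25 0.18, Mrps10 0.16, Mrpl2 0.10, Mrps22 0.063, Mrps18c 0.042 and Mrpl18 0.033. After rescaling they were Mrpl54 0.18, Mrps18b 0.14, Mrpl16 0.14, Mrps24 0.13, Mrps21 0.13, Mrpl42 0.13, Mrps18a 0.12 and Mrpl2 0.0043. When libraries were left out one at a time, the values that changed sign ran from -0.14 to 0.040 for Mrps21, -0.064 to 0.056 for Mrpl54, -0.14 to 0.0084 for Mrpl42, -0.13 to 0.029 for Mrps24, -0.10 to 0.065 for Mrps18b, -0.14 to 0.026 for Mrps18a, -0.081 to 0.017 for Mrpl16 and -0.0078 to 0.10 for Mrps28. Every one of these genes had an adjusted p above 0.05 in the unpaired test on the deposited scale. Of the 25 genes given one by one, 5 gained an adjusted p under 0.05 with the replicate block on the deposited scale (Mrps2, Mrpl43, Mrps35, Mrpl12 and Mrps22). On that scale it changed no other call among them. With median-of-ratios scaling the block brought Mrps28, Mrpl54, Mrps18b, Mrpl16, Mrps21, Mrpl42 and Mrps18a under 0.05, all as higher. The unknown depth leaves counting error unmeasured, which matters most for genes near 5 TPM.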
